A study of Mus musculus with 12 samples.

Results

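The genes described here are 42 developmental homeobox genes that lie outside the Hox clusters, out of 21887 protein-coding genes of the GRCm38.p6 annotation on chromosomes 1 to 19, X and Y. They were taken by symbol from 11 subfamilies, namely Lhx (8 genes), Six2 to Six6 (5), Irx (6), Dlx (6), Nkx2 (5), Nkx6 (2), Msx (2), En (2), Emx (2), Barhl (2) and Pitx (2). No measured value was a criterion, but earlier results of these data were known when the genes were chosen. ATAC-seq, an assay in which a transposase cuts and tags accessible DNA, was run on mouse embryonic stem cells of the hybrid line BL6xCAST. All the cells carried a synthetic insert on the X chromosome. In 6 libraries the insert was synHPRT1 (2 clones, 3 replicates each) and in the other 6 libraries it was synHPRT1R (2 clones, 3 replicates each). The cells were grown on gelatin with LIF in a mixture of mostly 2i and some serum-containing medium. Each genotype rests on 2 clonal lines, and no source used here says whether the replicates of a clone were grown separately, so the spread behind the p-values below is that of libraries and can be partly technical.

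Homeobox genes encode transcription factors that bind DNA through a homeodomain. Those outside the Hox clusters pattern the forebrain, eye, heart, limbs, pancreas and other organs, and most are silent or nearly silent in pluripotent cells. In embryonic stem cells many of their promoters are known to lie in CpG islands that carry repressive Polycomb marks together with activating marks, a state called bivalent. A peak in ATAC-seq says that DNA was accessible, not that the gene was transcribed.

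Peaks were widespread at these genes. A peak lay within 2 kb of either end of the gene in all 12 libraries for 28 of the 42 genes (66.7%), where 52.3% of all protein-coding genes had one. A further 13 genes (31.0%, against 20.4% of all genes) had such a peak in 1 to 11 libraries, and 1 gene, Lhx4, had it in no library, where 27.2% of all genes had none. Within the gene and 10 kb on either side, here called the window, 34 genes (81.0%) had a peak in all 12 libraries, against 67.9% of all genes, and 0 genes lacked one in every library, against 15% of all genes. These shares depended on the strength asked of a peak and on the distance. When peaks needed a −log10 q-value of 5 or more, 13 genes (31.0%) had one near an end in 12 libraries, against 41.9% of all genes, so that the homeobox genes went from above the background to below it. The window share did so too, at 21 genes (50%) against 57.1% of all genes. At 500 bp from the gene ends, 18 genes (42.9%) had a peak in 12 libraries, against 44.4% of all genes.

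Counted by gene, the 28 with a peak near an end in each library were Lhx6, Lhx8, Lhx9, Six2, Six4, Six5, Six6, Irx1, Irx3, Irx4, Irx5, Irx6, Dlx1, Dlx2, Dlx5, Dlx6, Nkx2-1, Nkx2-2, Nkx2-3, Nkx2-9, Nkx6-1, Nkx6-2, Msx1, En1, En2, Emx2, Barhl2 and Pitx3. The 13 between were Lhx1 and Msx2 in 11 libraries, Lhx5 in 9, Lhx2, Dlx3, Nkx2-5 and Emx1 in 8, Six3 in 7, Barhl1 and Pitx1 in 6, Dlx4 in 2, and Lhx3 and Irx2 in 1. In the window, the 8 genes short of 12 libraries were Lhx5 in 11, Dlx3, Nkx2-5, Emx1 and Pitx1 in 9, Barhl1 in 6, and Lhx3 and Dlx4 in 3. In lists cut to equal length, which removes the weakest peaks of the longer lists, the 28 became 23 (54.8%, against 48.5% of all genes).

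The length of DNA under peaks was also large for the size of the genes. Per gene and library, the median covered length was 1582 bp for the homeobox genes and 1049.5 bp for all protein-coding genes, and as a share of the window it was 5.50% and 1.98%. By that share 34 of the 42 genes stood above the median gene, and 19 stood above 5.75%, the value that marks the top 10% of all genes. The homeobox genes are short, with a median length of 6410 bp against 17169 bp. With 50 kb on either side in place of 10 kb the covered lengths were 2416 and 2450 bp and the shares 2.01% and 1.75%.

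The peaks themselves were weak. The median fold over background of the peaks in these windows, as the authors' lists give it, was 4.15 ± 0.129 (SD, n = 12), against 5.08 ± 0.219 for all peaks, and it was lower at the homeobox genes in 12 of 12 libraries. Ranked by fold within its own list, the median peak at a homeobox gene stood at percentile 28.1 ± 4.79, and 2.26 ± 0.943% of these peaks were in the top 10%. Their median width was 446 ± 36.9 bp, against 462 ± 14.7 bp for all peaks, and they were wider in 4 of 12 libraries. Merged over the libraries, the windows held 218 distinct regions, of which 47 (21.6%) were listed in all 12 libraries and 60 (27.5%) in 1 library. Over all 97889 regions of the genome these shares were 23.8% and 27.1%.

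At these genes few start sites were under a peak in every library, and more had a peak nearby in every library. The RefSeq promoter table for GRCm38.p6 held 38 start sites of 32 of the genes. The stretch from 250 bases before to 50 bases after the start was touched by a peak in all 12 libraries at 9 of the 38 (23.7%), against 41.5% of 21263 promoters of protein-coding genes. Of the 38, 26 (68.4%) were rich in CpG, here a GC content of at least 50% with a ratio of observed to expected CpG of at least 0.6, against 45.1% of all promoters. Among these 26, 8 (30.8%) were touched in all 12 libraries and 5 in none. Among all 9600 CpG-rich promoters, 72.4% were touched in all 12 libraries and 3.17% in none. Within 1 kb on either side of the start, 23 of the 38 (60.5%) had a peak in all 12 libraries, against 48.5% of all promoters. The share of CpG-rich promoters at this distance was not computed. It cannot be below their 72.4% in the shorter stretch, so the share of all 38 homeobox promoters stayed below it. The share of the 26 CpG-rich homeobox promoters within 1 kb was not computed either. Whether these 26 also stayed below at this distance is therefore not known.

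Around the start site the profile of these genes was lower at its centre than that of CpG-rich promoters and broader, though not at every distance. At the start site itself, 42.5 ± 7.08% of the homeobox promoters were under a peak in a library, against 49.2 ± 2.87% of all promoters and 81.9 ± 3.89% of CpG-rich ones (SD, n = 12). At 1 kb inside the gene the shares were 18.4% for the homeobox genes, 5.23% for all and 6.36% for CpG-rich promoters, and at 2 kb inside they were 11.8%, 1.296% and 1.23%. At 1 kb before the start they were 10.96%, 4.39% and 6.16%. At 2 kb before it the homeobox share was the lowest, with 0.219%, 1.58% and 1.43%, and at 3 kb before it the shares were 8.11%, 1.54% and 1.46%. For the 32 genes with a known strand, 8.92 ± 1.85% of the gene body was under peaks, against 1.47 ± 0.271% over 17492 protein-coding genes. In length this was 1054 ± 219 bp per gene against 688 ± 127 bp, and the homeobox genes are the shorter ones. The shares of the 10 kb before the gene were closer, at 4.13 ± 0.818% and 3.19 ± 0.474%, and those of the 10 kb after it were 2.15 ± 0.623% and 2.29 ± 0.444%.

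**Figure D1:**
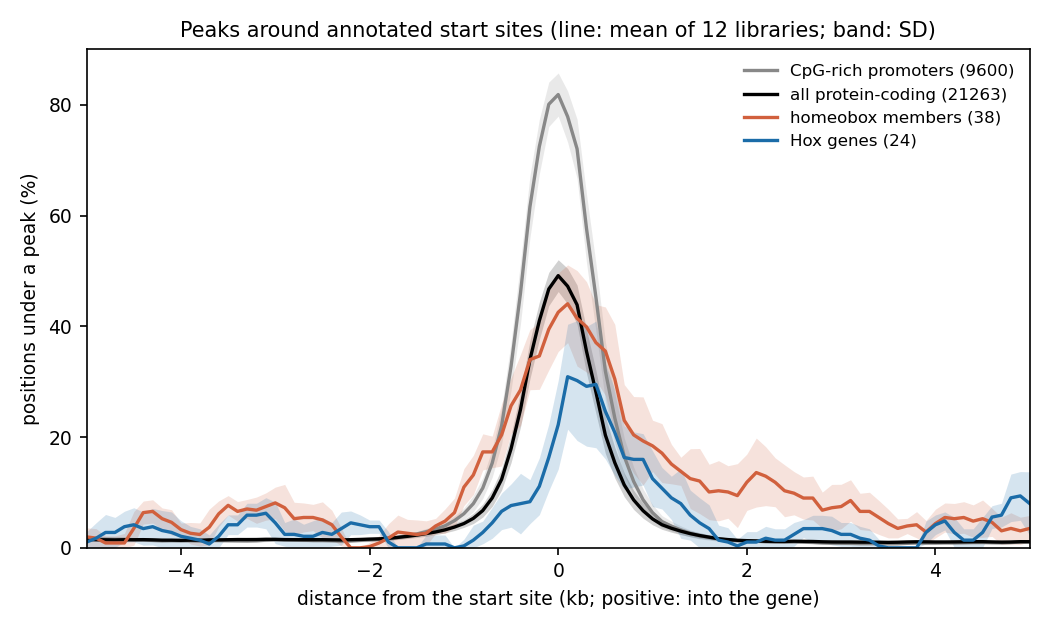
Share of annotated start sites under a peak (y axis, percent) by distance from the start site (x axis, kb, positive into the gene) for 38 homeobox promoters, all 21263 promoters, 9600 CpG-rich promoters and 24 Hox promoters, as the mean of 12 libraries with a band of 1 SD. The homeobox curve reaches 44.1%, below the 81.9% of CpG-rich promoters, and falls off more slowly into the gene.

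Promoter sequences of 6 genes are shown. Nkx2-2, a factor of ventral spinal cord and of pancreatic islet cells, had the greatest covered length of the genes with a listed promoter, and Lhx3, a pituitary and motor neuron factor, the least. Irx2 and Irx4 belong to 1 cluster and had a peak near an end in 1 and 12 libraries. Barhl2 and Barhl1, neuronal paralogues, were added after their values were seen. Each line gives the 250 bases before the start site from RefSeq (GRCm38.p6), 5′ to 3′ on the gene's strand, with each CpG in capitals.
Nkx2-2: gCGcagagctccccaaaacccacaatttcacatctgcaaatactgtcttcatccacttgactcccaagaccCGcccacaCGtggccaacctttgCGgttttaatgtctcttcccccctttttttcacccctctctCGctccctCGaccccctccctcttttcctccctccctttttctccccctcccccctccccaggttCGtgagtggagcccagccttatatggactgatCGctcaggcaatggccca
Lhx3: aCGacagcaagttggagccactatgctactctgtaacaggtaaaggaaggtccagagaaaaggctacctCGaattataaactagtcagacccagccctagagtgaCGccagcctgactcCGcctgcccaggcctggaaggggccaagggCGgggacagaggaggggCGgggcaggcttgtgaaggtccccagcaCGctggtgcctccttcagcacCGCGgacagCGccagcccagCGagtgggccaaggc
Irx2: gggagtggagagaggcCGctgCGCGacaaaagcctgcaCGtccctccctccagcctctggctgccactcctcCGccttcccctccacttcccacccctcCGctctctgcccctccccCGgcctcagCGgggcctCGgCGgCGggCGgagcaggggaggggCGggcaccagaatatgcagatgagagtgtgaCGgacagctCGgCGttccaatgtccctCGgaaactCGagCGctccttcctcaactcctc
Irx4: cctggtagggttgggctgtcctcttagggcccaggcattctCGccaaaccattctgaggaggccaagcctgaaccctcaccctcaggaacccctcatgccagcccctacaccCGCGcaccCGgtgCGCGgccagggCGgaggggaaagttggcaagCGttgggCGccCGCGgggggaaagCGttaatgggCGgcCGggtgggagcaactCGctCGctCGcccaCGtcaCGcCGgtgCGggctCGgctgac
Barhl2: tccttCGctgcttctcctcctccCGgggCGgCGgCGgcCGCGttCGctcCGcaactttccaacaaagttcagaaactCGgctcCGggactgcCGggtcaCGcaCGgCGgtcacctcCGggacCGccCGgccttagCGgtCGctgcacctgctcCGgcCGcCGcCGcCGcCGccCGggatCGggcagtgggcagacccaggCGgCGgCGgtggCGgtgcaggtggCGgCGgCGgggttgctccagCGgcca
Barhl1: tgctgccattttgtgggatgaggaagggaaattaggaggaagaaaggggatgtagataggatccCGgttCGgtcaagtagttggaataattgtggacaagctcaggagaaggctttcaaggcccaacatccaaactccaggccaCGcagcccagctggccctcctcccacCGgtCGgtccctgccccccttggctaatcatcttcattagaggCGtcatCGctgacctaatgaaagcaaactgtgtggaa

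The Nkx2-2 stretch (chr2:147186403-147186652, minus strand) holds 8 CpG, and its promoter was touched by a peak in 0 of 12 libraries although the gene had the longest covered length. The leading Nkx2-2 region, present in 12 libraries, was centred 8074 bp inside the gene from that start. The Lhx3 stretch (chr2:26208250-26208499, minus strand) holds 11 CpG, and the promoter at this start site was touched in 1 library. The other listed Lhx3 start site, not printed, has 22 CpG in its 250 bases and was touched in 0. The Irx2 stretch (chr13:72628570-72628819, plus strand) holds 19 CpG, and its promoter was touched in 12 libraries. The Irx4 stretch (chr13:73260247-73260496, plus strand), with 22 CpG, was touched in 6, so that CpG number and the number of libraries did not go in 1 order in this pair. They did in the neighbours Six2 and Six3, not printed, which differ more. Six2 has 26 CpG and was touched in 12 libraries, and Six3 has 10 and was touched in 0. The Barhl2 stretch (chr5:106458167-106458416, minus strand) holds 36 CpG and was touched in 9 libraries. The Barhl1 stretch (chr2:28916669-28916918, minus strand) holds 7 CpG and was touched in 0, as was the other listed Barhl1 start site, with 12 CpG.

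Short motifs were searched on both strands of the 300-base promoters, each by its letters and without regard to overlap between them. The GC box GGGCGG occurred in 26 of 38 homeobox promoters (68.4%), against 46.2% of all promoters and 76.8% of CpG-rich ones. The CCAAT box was found in 17 (44.7%, against 38.2% of all and 36.1% of CpG-rich ones) and the TATA box TATAAA in 2 (5.26%, against 12.6% of all and 4.52% of CpG-rich ones). The homeodomain core TAATTA occurred in 3 promoters, those of Barhl1, Emx2 and Msx2 (7.89%, against 4.53% and 1.39%). The E-box CACGTG occurred in 4 (10.5%, against 7.84% of all and 11.6% of CpG-rich ones).

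The gene ends in the annotation did not always mark the start site, and this set the count of some genes. Irx2 had a peak near an end in 1 of 12 libraries, yet its promoter in the RefSeq table lies inside the annotated gene and was touched in 12. Lhx4, a pituitary and motor neuron factor related to Lhx3, had no peak near an end in any library. Its leading region was centred 493 bp inside the gene from the listed start site and was present in 12 of 12 libraries, and its promoter was touched in 9. In all, 6 genes had a peak in the window in 12 libraries without having one near an end in 12: Lhx1, Lhx2, Lhx4, Six3, Irx2 and Msx2.

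**Figure D2:**
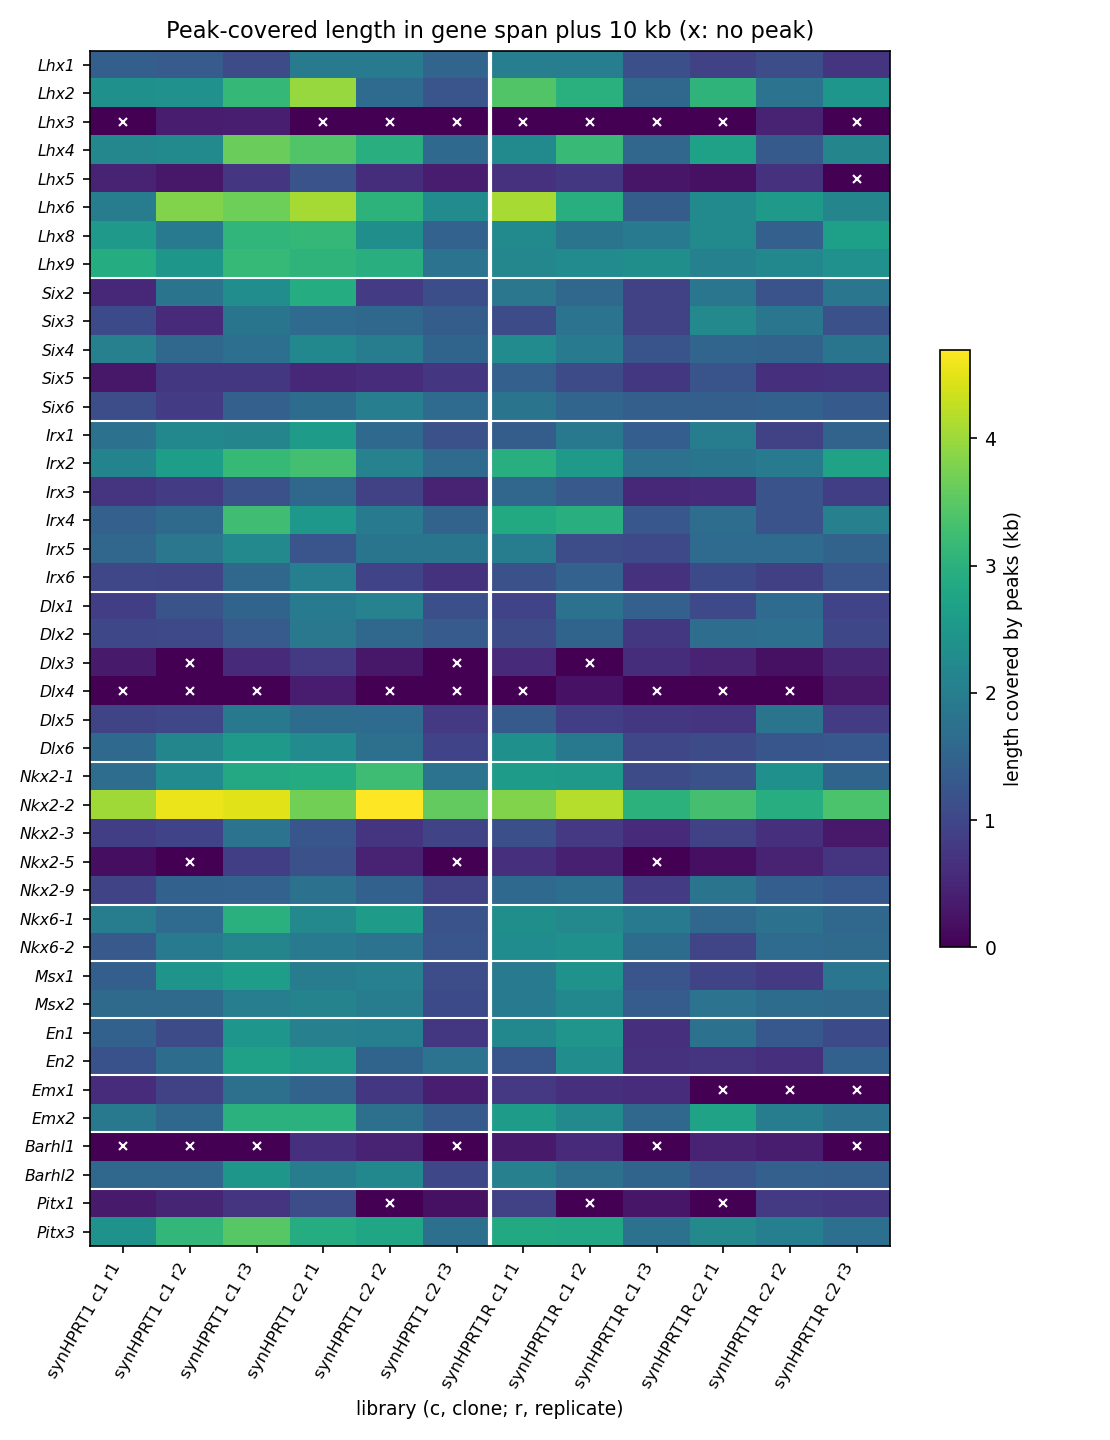
Length covered by peaks (colour, kb) in the window of each of the 42 genes (rows, ordered by subfamily) in each of the 12 libraries (columns, with a white line between the genotypes). A cross marks a library with no peak in the window, and these lie in 8 genes: Lhx3, Lhx5, Dlx3, Dlx4, Nkx2-5, Emx1, Barhl1 and Pitx1.

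The Lhx genes encode LIM homeodomain proteins, which pair the homeodomain with LIM zinc fingers that bind the cofactor Ldb1. Covered lengths of single genes here and below are in bp and are not scaled to the window, which is longer for longer genes. Lhx6, a factor of cortical interneurons, had the greatest covered length of the 8. It ranged from 1377 bp to 4084 bp with a median of 2732.5 bp over the 12 libraries, and a peak lay near an end in 12. Lhx3 had the least, 0 bp in 9 libraries and 374, 394 and 445 bp in the other three, with a peak near an end in 1 library. The close relative Lhx4 ranged from 1331 to 3620 bp and exceeded Lhx3 in 12 of 12 libraries, with no overlap of their ranges. Lhx1, a factor of the early organizer and kidney, had a peak near an end in 11 libraries and ranged from 715 to 2014 bp (median 1382.5 bp). Its relative Lhx5 had one in 9 libraries and ranged from 0 to 1197 bp (median 536 bp), and Lhx1 was the higher in each of the 12 libraries. In lists cut to equal length the counts near an end were 3 for Lhx5, 7 for Lhx1, 5 for Lhx2 and 9 for Lhx6. Lhx2, needed for the eye and cortex, had a peak near an end in 8 libraries and ranged from 1247 to 3966 bp (median 2420.5 bp). The table lists its second start site inside the gene, and that promoter was touched in 12 libraries while the outer one was touched in 2. Lhx8 and Lhx9, factors of basal forebrain and of gonad, had peaks near an end in 12 libraries, with mean lengths of 2236 ± 554 and 2480 ± 435 bp (SD, n = 12).

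Six2 to Six6 encode sine oculis-type factors that act with Eya and Dach proteins in the eye, kidney and muscle. A peak lay near an end in 12 libraries for Six2, Six4, Six5 and Six6, and in 7 for Six3, a forebrain and eye factor. Six4 had the greatest covered length, from 1223 to 2263 bp (median 1777 bp), and Six5 the least, from 305 to 1435 bp (median 748.5 bp). The ranges of the 2 genes overlapped slightly. As a share of the window the order differed, with 5.88% at Six6, 5.16% at Six4, 4.37% at Six3, 3.43% at Six2 and 3.29% at Six5. The leading Six4 region was centred 29 bp before a start site, with a median fold of 8.82, at percentile 89.7 of its lists. The ends of Dmpk and Bhmg1 also lie near the ends of Six5, and that of Mnat1 near Six4, so that peaks there cannot be assigned to 1 gene. Six2, a factor of kidney progenitors, ranged from 544 to 2909 bp (median 1690 bp), and Six3 from 563 to 2218 bp (median 1492 bp). Six2 was the higher of this neighbouring pair in 5 libraries and Six3 in 7. Six6, an eye and pituitary factor, ranged from 832 to 2018 bp (median 1446.5 bp). In lists cut to equal length the Six3 count near an end was 2 of 12.

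The Iroquois genes Irx1 to Irx6 form 2 clusters of 3 genes and pattern the neural tube, heart and limbs. Irx2 had the greatest covered length of the 6, from 1649 to 3298 bp (median 2333.5 bp), and Irx3 the least, from 461 to 1591 bp (median 900 bp), with no overlap between them. Irx4, which marks the ventricles of the heart, ranged from 1203 to 3251 bp (median 1795.5 bp), and Irx1 from 912 to 2578 bp (median 1673.5 bp). Irx5 ranged from 1030 to 2211 bp (median 1638 bp) and Irx6 from 662 to 2036 bp (median 1028 bp). All but Irx2 had a peak near an end in 12 libraries. Within the chromosome 13 cluster Irx2 was above Irx1 in 11 libraries and above Irx4 in 10, and within the chromosome 8 cluster Irx5 was above Irx3 in 10 and above Irx6 in 10.

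The Dlx genes stand in 3 convergent pairs and act in forebrain interneurons, the jaw and the limbs. The pairs differed sharply. Dlx1, Dlx2, Dlx5 and Dlx6 each had a peak near an end in 12 libraries, while Dlx3, a factor of skin, hair and placenta, had one in 8 and Dlx4 in 2. Dlx6 had the greatest covered length, from 941 to 2523 bp (median 1677 bp), and Dlx4 the least, 0 bp in 9 libraries and 226, 327 and 363 bp in the other three. Dlx3 ranged from 0 to 798 bp (median 390 bp). Dlx1 ranged from 875 to 2081 bp (median 1320.5 bp), Dlx2 from 763 to 1890 bp (median 1351.5 bp) and Dlx5 from 723 to 1902 bp (median 978 bp). Dlx1 exceeded Dlx3, and Dlx2 exceeded Dlx4, in 12 of 12 libraries, whereas Dlx1 was above Dlx2 in 6 libraries and below it in 6. In lists cut to equal length Dlx3 had a peak near an end in 2 libraries and Dlx4 in 1, while Dlx1, Dlx2 and Dlx6 stayed at 12 and Dlx5 went to 11.

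The Nkx2 genes include Nkx2-1, a master factor of thyroid, lung and ventral forebrain, and Nkx2-5, a factor of the early heart. Nkx2-2 covered the most DNA of all 42 genes, from 2931 to 4699 bp (median 3751 bp). Nkx2-5 covered the least of its subfamily, from 0 to 1172 bp (median 432 bp), with a peak near an end in 8 libraries, or in 2 with lists of equal length. Nkx2-1 ranged from 1071 to 3243 bp (median 2317.5 bp) and exceeded Nkx2-5 in 12 of 12 libraries. Nkx2-9, which neighbours Nkx2-1, ranged from 824 to 1805 bp (median 1453.5 bp) and was the lower of the 2 neighbours in 11. Nkx2-3, a factor of spleen and gut, had 907 ± 377 bp (SD, n = 12). The related Nkx6-1, a factor of beta cells and motor neurons, and Nkx6-2 had peaks near an end in 12 libraries, with 2008 ± 493 and 1738 ± 420 bp.

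The remaining subfamilies were read as pairs. Msx1 and Msx2, effectors of BMP signalling in the face and limbs, had 1733 ± 615 and 1747 ± 326 bp, and Msx1 was the higher in 7 of 12 libraries. Msx2 had a peak near an end in 11 libraries and ranged from 1048 to 2187 bp (median 1733.5 bp). En1 and En2, which set the midbrain and hindbrain border, had 1600.3 ± 642 and 1536 ± 702 bp, each the higher in 6 libraries. In both of these pairs the paralogues overlapped widely.

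The other three pairs did not match in this way. Emx2, a factor of cortex and urogenital tract, had 2124 ± 578 bp, and its paralogue Emx1 ranged from 0 to 1727 bp (median 618.5 bp) with a peak near an end in 8 libraries. Barhl2 had 1684 ± 420 bp, and Barhl1, known from inner ear hair cells, ranged from 0 to 635 bp (median 166.5 bp) with a peak near an end in 6. Pitx3, a factor of lens and midbrain dopamine neurons, had 2484 ± 591 bp. Pitx1, a factor of hindlimb identity, ranged from 0 to 1107 bp (median 414 bp) and had a peak near an end in 6 libraries, or in 0 with lists of equal length. Emx2, Barhl2 and Pitx3 each exceeded the paralogue in 12 of 12 libraries. The Pitx3 window holds ends of Elovl3 and Gbf1, the Pitx1 window one of Catsper3, the Emx1 window one of Sfxn5 and the Barhl1 window one of Ddx31, so peaks there are not assigned to 1 gene.

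**Figure D3:**
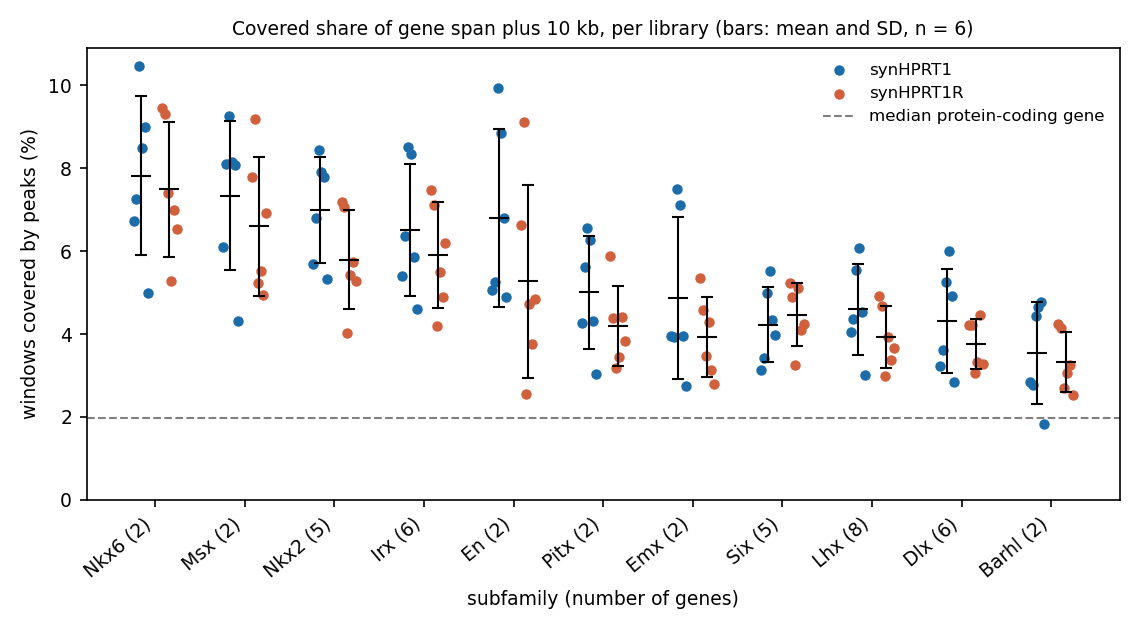
Share of the summed windows under peaks (y axis, percent) for each subfamily (x axis, number of genes in brackets), with 1 point per library, the mean and SD of 6 libraries per genotype, and a dashed line at the median gene, 1.98%. The subfamilies run from 7.65% for Nkx6 to 3.44% for Barhl.

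Covered shares of single genes ran from 0.295% of the window at Dlx4 to 9.77% at Nkx2-2. A subfamily share averages those of its genes, so the range of subfamilies cannot be wider. Summed over the windows of a subfamily, the covered share over the 12 libraries was 7.65 ± 1.70% for Nkx6, 6.96 ± 1.70% for Msx, 6.39 ± 1.33% for Nkx2, 6.21 ± 1.41% for Irx and 6.03 ± 2.27% for En. It was 4.60 ± 1.20% for Pitx, 4.40 ± 1.54% for Emx, 4.35 ± 0.805% for the Six2 to Six6 group, 4.26 ± 0.958% for Lhx, 4.03 ± 0.983% for Dlx and 3.44 ± 0.971% for Barhl. Neighbours in this order kept it in 5 to 11 of 12 libraries. The clearest neighbouring steps were Dlx over Barhl in 11 libraries and Msx over Nkx2 in 10, while Nkx2 over Irx held in 5. The genes of a subfamily are not replicates, so these shares carry no test.

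Among the clusters, the tightly spaced Dlx pairs were the most and nearly the least covered. From the outermost gene ends with 10 kb on either side, Dlx5 and Dlx6 on chromosome 6 had 6.23 ± 2.09% of their 38.7 kb under peaks, and Dlx1 and Dlx2 on chromosome 2 had 6.08 ± 1.06% of 38.6 kb (SD, n = 12). Dlx3 and Dlx4 on chromosome 11 had 0.942 ± 0.725% of 46.2 kb, below the 1.27% of that chromosome as a whole. The ranges over libraries, 0 to 2.51% for this pair and 3.41 to 9.69% and 4.40 to 7.89% for the other two, did not overlap. Each of the other two held 2 regions present in 12 libraries, and the Dlx3 and Dlx4 interval held 0 of its 6. Metap1d ends within the Dlx1 and Dlx2 interval, and no other protein-coding gene ends within those of the other pairs.

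The Irx clusters spread over far more DNA. Irx1, Irx2 and Irx4 with their flanks span 1331 kb of chromosome 13, of which 0.875 ± 0.171% was under peaks, against 1.09% of the chromosome. Peaks took 7.17 ± 1.79% of the 3 gene windows and 0.444 ± 0.0774% of the DNA between them. Irx3, Irx5 and Irx6 span 902 kb of chromosome 8, with 1.13 ± 0.218% under peaks, against 1.10% of the chromosome, and with 5.08 ± 1.09% of the windows and 0.778 ± 0.152% of the DNA between. The chromosome 13 cluster held 11 regions present in 12 libraries, 6 of them in gene windows and 5 between. The chromosome 8 cluster held 10, of which 3 were in gene windows and 7 between, 5 of these 7 between Irx3 and Irx5.

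The clusters of Six2 with Six3, Six4 with Six6 and Nkx2-1 with Nkx2-9 lay between these. Six4 and Six6 on chromosome 12 had 4.46 ± 0.743% of 194 kb under peaks, with 5.46% of the 2 gene windows. Six2 and Six3 on chromosome 17 had 3.92 ± 0.960% of 94.6 kb, with 3.83% of the windows and 4.37 ± 0.199% of the DNA between, where 1 region was present in 12 libraries. Nkx2-1 and Nkx2-9 on chromosome 12 had 3.56 ± 0.968% of 102 kb, with 7.53 ± 1.94% of the windows and 0.116 ± 0.214% of the DNA between, where 0 regions were present in 12 libraries. Chromosomes 12 and 17 as wholes had 1.01% and 1.29%.

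**Figure D4:**
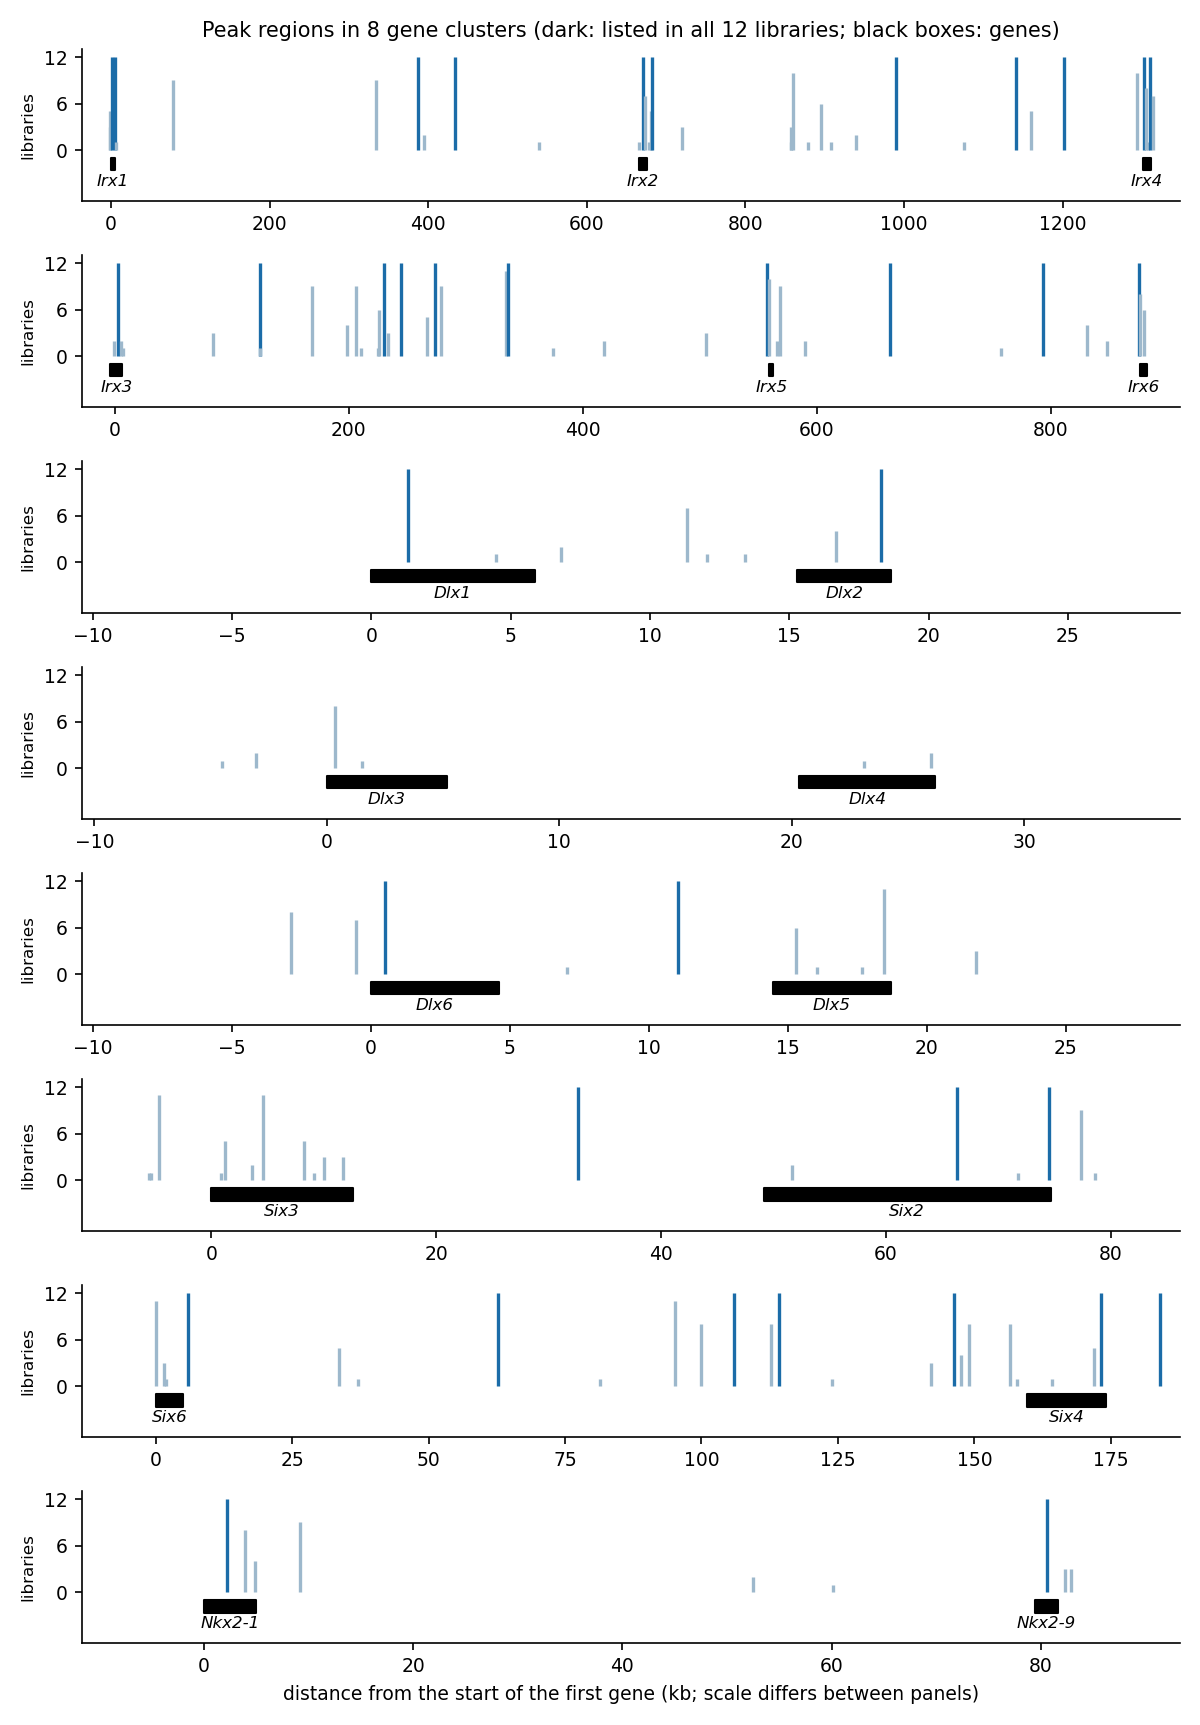
Merged peak regions in the 8 clusters, placed by distance from the start of the first gene (x axis, kb, with a scale of its own in each panel) and drawn to a height equal to the number of libraries that list them (y axis), dark where that is 12. Black boxes are the genes, and the panel of Dlx3 and Dlx4 has no dark line.

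In each window the leading region was taken as the one listed in the most libraries and, among ties, with the highest median fold. Of 32 genes with a listed start site, the leading region was centred within 1 kb of it at 15 and over 2 kb away at 15, of which 12 lay after the start and 3 before it. The highest median fold of a leading region was at Lhx9, with 11.9 (range 9.54 to 15.4), at percentile 98.9 of its lists. It lay at chr1:138856101-138857143 (GRCm38), centred 14214 bp before the listed Lhx9 start and 7819 bp beyond the outer end of the gene, in a window that the gene 2310009B15Rik shares. Next came Six4 with 8.82 and Lhx1 with 8.56, the latter centred 11918 bp downstream of the start at chr11:84513101-84514136. The Lhx1 window also holds an end of Aatf. Pitx3 had 8.09, centred 4045 bp before the start and outside the gene, in a window that also holds ends of Elovl3 and Gbf1, and Irx5 had 7.78, centred 1652 bp from the nearest end of the gene. The lowest was at Pitx1, with 3.54 and 6 libraries.

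Neighbouring genes shared some of the windows. For 30 of the 42 genes the window held no end of a protein-coding gene other than a homeobox gene listed here. Of these 30, 21 had a peak near an end in 12 libraries and 26 had one in the window in 12, with a median covered length of 1608 bp. For the other 12 genes, this count near an end was 7, with a median of 1404 bp. Ends of Morn5 lie near those of Lhx6, Qsox2 near Lhx3, 2310009B15Rik near Lhx9, Metap1d near Dlx1 and Inpp5a near Nkx6-2. Peaks there cannot be assigned to 1 gene either.

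The genotypes were compared at the same genes, since synHPRT1 and synHPRT1R libraries form the contrast of the design. A peak near an end was present at 36, 33, 35, 37, 36 and 30 of the 42 genes in the synHPRT1 libraries and at 37, 37, 33, 35, 38 and 35 in the synHPRT1R libraries. The 2 sets overlapped. The means were 34.5 ± 2.59 and 35.8 ± 1.83 (SD, n = 6 each, two-sided exact permutation p = 0.403). The covered length summed over the 42 genes was 68093 ± 15962 bp for synHPRT1 and 60198 ± 11355 bp for synHPRT1R, which overlapped (n = 6 each, exact permutation p = 0.325). Scaled to 1000000 covered bases of the genome it was 2368 ± 98.2 and 2262 ± 146 bp (n = 6 each, exact permutation p = 0.173).

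The shallowest and the deepest library differed in covered length. The shallowest library, synHPRT1 clone 2 replicate 3, had an estimated background pileup of 1.74 reads and 47360 bp over the homeobox genes. The deepest, synHPRT1 clone 2 replicate 1, had 3.72 reads and 86569 bp. The order was not strict between them. The least covered library, synHPRT1R clone 1 replicate 3, had 1.98 reads and 45490 bp, and synHPRT1R clone 2 replicate 1 had 2.79 reads and 57148 bp. The mean pileup was 2.67 ± 0.724 reads in synHPRT1 and 2.39 ± 0.431 in synHPRT1R (n = 6 each, exact permutation p = 0.452), and its part in the covered lengths was not tested.

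**Figure D5:**
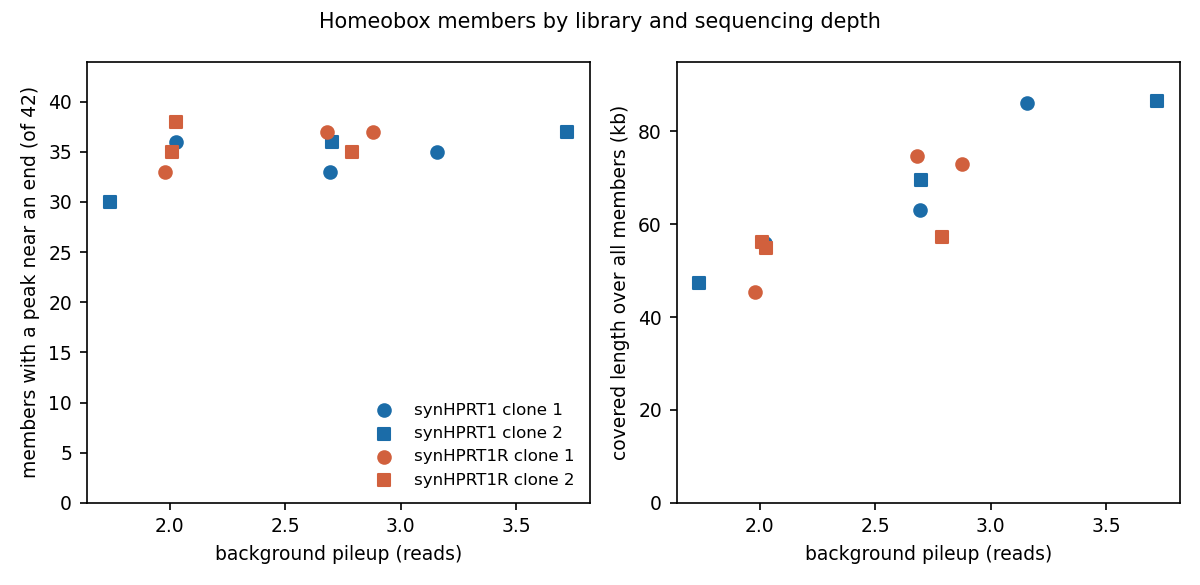
Number of homeobox genes with a peak near an end (left, of 42) and covered length summed over the 42 genes (right, kb), against the estimated background pileup (x axis, reads), with 1 point per library, colour for the genotype and shape for the clone. Numbers of genes run from 30 to 38, and covered length is greatest in the deepest library.

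Gene by gene, 0 of the homeobox genes passed for the genotype. Of the 13 with a peak near an end in 1 to 11 libraries, the smallest Fisher's exact p was 0.242, at Six3, with 2 synHPRT1 and 5 synHPRT1R libraries. After Benjamini-Hochberg adjustment 0 of 4474 genes were called (0% of those tested), and 8 of them (0.179%), 0 of these homeobox genes, had an unadjusted p under 0.05. By covered length, 0 of 18602 genes were called with the exact permutation test (0%), and 669 (3.6%) had an unadjusted p under 0.05. The smallest p that 6 libraries against 6 allow is 0.00216. Of the 42 genes, 30 had the greater mean in synHPRT1, as did 70.4% of all genes tested.

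Nkx2-2, Emx1 and Lhx9 were the 3 homeobox genes with an unadjusted p under 0.05 by covered length, and each had an adjusted p of 1. Nkx2-2 had 4176 ± 478 bp for synHPRT1 and 3435 ± 477 bp for synHPRT1R, with overlap (n = 6 each, exact permutation p = 0.0260). Lhx9 had 2722 ± 513 and 2237 ± 111 bp (n = 6 each, exact permutation p = 0.0476). The synHPRT1 libraries held 5 values from 2479 to 3154 bp, above the highest synHPRT1R value of 2370 bp, and 1 of 1788 bp in the shallowest library. Emx1 had 981 ± 521 and 335 ± 372 bp (n = 6 each, exact permutation p = 0.0411). In synHPRT1 it ran from 402 to 1727 bp, in synHPRT1R clone 1 it was 775, 640 and 594 bp, and in synHPRT1R clone 2 it was 0 bp in all 3 libraries, so the values of 0 came from 1 clone.

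Known partners of these factors, or genes of their families, were counted in the same way, beside the 52.3% (near an end) and 67.9% (window) of all genes. Of 10 LIM homeodomain partners, 6 (60%) had a peak near an end in 12 libraries, close to the share of all genes, and 9 (90%) had one in the window. Ldb1, the shared cofactor of LIM proteins, had one near an end in 5 libraries and in the window in 12. Of 6 Eya and Dach genes, whose products partner the Six2 to Six6 factors, 5 did near an end (83.3%), Eya2 being the other with 5 libraries. Of 6 Groucho family genes, Tle1 to Tle6, not all of which are corepressors, 4 did (66.7%). Tle2 had such a peak in 1 library and Tle3 in 10. Of 11 TALE cofactors 10 did (90.9%), Pbx2 being the other with 3 libraries. In the 39 Hox genes, the clustered relatives, 10 did (25.6%), and 25 (64.1%) had a peak in the window in 12 libraries. By both measures the homeobox genes outside the clusters had the higher share, 66.7% and 81.0%. No member of these 5 lists was called for the genotype by Fisher's exact test or the exact permutation test.

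Marker genes gave the setting. Of 12 embryonic stem cell markers 11 had a peak near an end in 12 libraries, the exception being Esrrb with 1 near an end and 12 in the window. Of 10 fibroblast markers 2 did, Fn1 and Vim, and 7 (70%) had a peak in the window in 12 libraries, among them Col1a1, Col1a2, Col3a1, Lum and Pdgfrb, near the 67.9% of all genes. Postn was listed at 0 in the window in every library. Of 10 genes taken as silent, 0 did, and 2 had a peak in the window in 12 libraries. The peak lists held 38403 to 63704 peaks, and no 2 lists were identical, since pairs of libraries shared 54.2% to 89.3% of their peaks.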

How the data were processed

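ATAC-seq peak lists of 12 libraries were used, 1 per library, so peaks were not called on pooled samples. The tools in the submitters' processing notes are MACS2 2.1.0, Bowtie2 2.2.9, deepTools 3.5.0, SAMtools 1.9 and bcl2fastq 2.20, and the builds are GRCm38 and mm10. The treatment of duplicates, multi-mapping reads and the transposase offset was not given in the sources used here. In the authors' deposited lists a peak has a score, a fold (the ratio of the summit to the local background), a −log10 p-value and a −log10 q-value. The deposited lists hold no read counts. The background pileup was estimated from the spacing of the fold values.

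A peak counted as present with an overlap of 1 bp. Gene ends came from the RefSeq table of GRCm38.p6, and covered length is the union of peaks in the gene plus 10 kb. The genotype contrast used a two-sided exact permutation test over 924 splits of 6 libraries against 6, and per gene this test and Fisher's exact test, adjusted by the Benjamini-Hochberg method over all protein-coding genes tested at a threshold of 0.05. The scripts ran in Python 3.11.15 with numpy 2.4.6 and scipy 1.17.1 and were tested on simulated data. Alternatives were other distances, stricter peaks, lists cut to 38400 peaks, other overlaps, clone means, a replicate block and leaving out each library. Values are given for the genes with the most and the least covered length of each larger subfamily, for the clusters, and for the genes near an end in 1 to 11 libraries. Other genes were added for their relation to these. The members and lists were chosen with earlier results of these data known.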

Additional observations from a re-analysis of the deposited data

Results flagged for a closer look

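Among 126 sets of 6 libraries examined, 2 held 1 library far from the other five, and chance alone flags about 1 set in 20. Lhx3 had a covered length of 445 bp in synHPRT1R clone 2 replicate 2 and 0 bp in the other synHPRT1R libraries. Dlx4 had 363 bp in synHPRT1 clone 2 replicate 1, the deepest library, and 0 bp in the other synHPRT1 libraries. Both are single peaks.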

How the results depend on the processing

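In 28 genes all libraries had a peak near an end, in 18 at 500 bp from the ends (42.9%, against 44.4% of all genes) and in 13 when the −log10 q-value had to reach 5. Genes with none numbered 1, and 3 at 500 bp, 3 at the stricter q-value and 2 in lists of equal length. Leaving out each library gave 28 to 29 and 1 to 2. With the stricter q-value, 21 genes in place of 34 had a peak in the window in every library (50%, against 57.1% of all genes) and 1 in place of 0 had none. The genotype difference in genes near an end, −1.33, was reversed at 500 bp (0.833), at 1 kb (0.167) and at the stricter q-value (0.333). The mean covered length over subfamilies, 1510 bp, was 834 bp with no flank, 2287 bp with 50 kb and 1088 bp with the stricter q-value, and the mean share over clusters, 3.40%, was 2.50% with the latter. Promoters touched in all libraries, 9 of 38, became 5 with the stricter q-value and 23 within 1 kb, alternatives chosen after seeing the data. Deviations from the clone means, gene by gene, correlated from −0.414 to 0.412 between libraries of the same replicate number. Between libraries of different numbers they correlated from −0.430 to 0.555. A shift common to all genes would not show in these correlations, so they cannot decide whether the numbers pair the libraries. Leaving out each library, the genotype difference ran from −1.9 to −0.433 genes and from 4201 to 12042 bp. With a replicate block the genotype p was 0.333 for genes near an end and 0.389 for covered length, both by exact permutation, and 0 genes were called (8 by presence and 595 by covered length had an unadjusted p under 0.05). Clone means, 2 against 2, cannot give a p below 0.333 by the exact permutation test. Over every alternative run, 0 genes were called by either test. Depth, known here from the pileup estimate alone, limits how far an absent peak can be read.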
